A study of Mus musculus with 14 samples.

Results

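The lung response to mechanical ventilation that wild-type and jnk1-/- mice had in common was read from all 14 arrays of the series, 1 array per animal. Wild-type C57/BL6 mice gave 3 control and 4 ventilated arrays, and jnk1-/- mice, which lack the c-Jun NH2-terminal kinase JNK1 in every cell and were kept in the same C57/BL6 background, gave 3 control and 4 ventilated arrays. Ventilated mice received room air through a tracheostomy at a tidal volume of 10 ml/kg and a positive end-expiratory pressure of 2 cmH2O for 8 hours, with hourly recruitment and the muscle relaxant pancuronium. Control mice were killed directly after the anesthesia with ketamine and acepromazine that both arms received, so ventilation, hours under anesthesia, muscle relaxation and the elapsed time cannot be told apart. The study describes its mice as adult and as matched by age, without giving an age in weeks or months. Each probe was fitted with genotype and ventilation as additive terms, which gives the main effect of ventilation (8 ventilated against 6 control arrays). The ventilation effect of each genotype came from a fit of the 4 groups over all 14 arrays, with the spread estimated together. A probe was called shared when its main effect and the effects of both genotypes passed an adjusted p of 0.05 with the same sign. Values are normalized log2 intensities, a difference of 1 on this scale is a 2-fold change, and the p-values measure the spread between these animals. Because whole lung was measured, fewer cells of a type and less RNA per cell cannot be told apart.

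Ventilation at moderate tidal volumes stretches the alveolar wall and is known for drawing neutrophils into the lung, for the release of cytokines and for changes in the barrier between blood and air. Stretched and injured lung cells use several general stress programs, among them the immediate early transcription factors of the AP-1 family, the metal-binding metallothioneins, the amino acid response driven by ATF4, and the acute phase genes controlled by C/EBP factors. JNK1 is a kinase that phosphorylates c-Jun, an AP-1 subunit, so a response found in both genotypes is one that was present with and without this kinase.

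To show the DNA in front of genes that rose in both genotypes, 5 promoters are printed, 1 each for a neutrophil collagenase, an acute phase protein, a cytokine, a metal-binding protein and an enzyme of amino acid synthesis. They were chosen after the values were seen. Each window runs from 250 bases before to 50 bases after a RefSeq start of the gene on the GRCm38.p6 build, on the strand of the gene. Capitals mark the matches named for each gene, on either strand. The C/EBP letters are TTNCNNAA, the AP-1 letters TGANTCA, the metal response letters TGCNCNC and the C/EBP-ATF letters TGATGNAA. Mmp8 (chr9:7558179-7558478, plus strand) has 2 C/EBP matches in capitals. Saa3 (chr7:46715627-46715926, minus strand) has 4 C/EBP matches, the second of which also reads as the heat shock letters TTCNNGAA. The Saa3 window lies inside the span given for the gene (chr7:46711998-46719615) and not at its upstream end. Il6 (chr5:30012864-30013163, plus strand) has 1 AP-1 match near its 5′ end and 1 C/EBP match. Mt2 (chr8:94172368-94172667, plus strand) has 6 metal response matches and 1 AP-1 match. Asns (chr6:7693160-7693459, minus strand) has 1 C/EBP-ATF match, the composite letters known from genes of amino acid supply. Further short matches in the Mt2 and Asns windows to letters not named for them are left in lower case.
Mmp8: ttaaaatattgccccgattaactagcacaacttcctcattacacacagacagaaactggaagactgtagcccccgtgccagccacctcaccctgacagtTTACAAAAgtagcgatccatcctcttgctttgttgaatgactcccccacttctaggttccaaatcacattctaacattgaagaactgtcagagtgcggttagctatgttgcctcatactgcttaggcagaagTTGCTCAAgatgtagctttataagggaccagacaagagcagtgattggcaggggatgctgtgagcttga
Saa3: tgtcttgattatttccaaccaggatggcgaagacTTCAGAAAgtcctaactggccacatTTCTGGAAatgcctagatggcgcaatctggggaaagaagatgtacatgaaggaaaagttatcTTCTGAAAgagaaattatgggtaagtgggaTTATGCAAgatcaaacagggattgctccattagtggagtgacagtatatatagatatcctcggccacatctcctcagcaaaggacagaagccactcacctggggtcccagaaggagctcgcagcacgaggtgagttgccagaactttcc
Il6: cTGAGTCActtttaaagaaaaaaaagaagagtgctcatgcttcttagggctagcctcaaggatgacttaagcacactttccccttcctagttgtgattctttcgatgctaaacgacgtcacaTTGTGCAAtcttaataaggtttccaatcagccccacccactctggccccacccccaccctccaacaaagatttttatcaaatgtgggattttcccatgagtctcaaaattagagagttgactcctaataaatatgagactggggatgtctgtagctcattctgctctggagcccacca
Mt2: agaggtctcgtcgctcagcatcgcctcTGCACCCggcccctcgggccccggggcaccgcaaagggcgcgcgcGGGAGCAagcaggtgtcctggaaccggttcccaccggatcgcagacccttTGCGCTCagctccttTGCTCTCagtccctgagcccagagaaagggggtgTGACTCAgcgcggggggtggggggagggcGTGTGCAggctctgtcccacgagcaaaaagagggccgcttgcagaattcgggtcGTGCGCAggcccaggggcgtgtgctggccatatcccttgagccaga
Asns: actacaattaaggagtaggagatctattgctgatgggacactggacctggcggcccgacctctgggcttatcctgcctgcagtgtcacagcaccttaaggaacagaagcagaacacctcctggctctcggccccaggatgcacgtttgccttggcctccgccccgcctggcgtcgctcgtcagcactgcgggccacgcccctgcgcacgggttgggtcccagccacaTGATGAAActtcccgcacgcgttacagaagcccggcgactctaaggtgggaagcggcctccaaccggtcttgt

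Of the 318 genes with a shared probe, 252 have a promoter window in the RefSeq table, 157 of them genes that rose and 95 genes that fell. The AP-1 letters stood in 11.8% of the 203 windows of shared genes that rose, in 3.64% of the 110 windows of shared genes that fell, and in 6.88% of all 13919 windows of measured genes. The heat shock letters stood in 13.3%, 6.36% and 7.44% of the same windows. For the C/EBP letters the shares were 36.5%, 46.4% and 35.5%, for the C/EBP-ATF letters 3.45%, 1.82% and 2.85%, and for the metal response letters 53.7%, 57.3% and 57.2%. The cAMP response letters TGACGTCA were in 3.94%, 0% and 2.52%, the E-box CACGTG in 10.3%, 7.27% and 8.61%, and the glucocorticoid receptor half-site TGTTCT in 16.3%, 20% and 14.9%. These shares are descriptions of letters, without a test, and a short motif such as TGCNCNC is found in most windows of any kind.

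Ventilation changed lung expression widely in the main effect, and a smaller set of probes also passed in the effect of each genotype. Of 19621 probes, 1523 (7.76%) were higher and 1172 (5.97%) were lower in the main effect. The shared call took in 222 probes that rose (1.13% of those tested) and 139 that fell (0.708%), 361 in all or 13.4% of the main-effect calls. Among the other main-effect calls, 1167 passed in jnk1-/- lungs but not in wild-type lungs, 196 in wild-type lungs but not in jnk1-/- lungs, and 971 in neither genotype alone. Of the 2695 main-effect calls, 2694 had the same sign in both genotypes, a share that the additive fit itself favours. Shared probes that rose had a median main effect of 1.58, and 71 of them rose more than 4-fold, while shared probes that fell had a median of -1.43, with 31 beyond 4-fold. The median main effect over all probes was 0.045. Control and ventilated arrays did not overlap within either genotype, in the same direction, for 354 of the 361 shared probes, beside 7.69% of all probes, and this measure comes from the same arrays as the shared call. With the table that the authors normalized, the shared call took in 314 probes that rose and 313 that fell, so that the share of rises went from 61.5% to 50.1%.

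The 2 genotypes' own effects share no array, so each can be set beside the other. Over all probes, the wild-type and jnk1-/- effects had a Pearson r of 0.278 and a Spearman rho of 0.288, and 60.8% of probes had the same sign. Over the 13591 probes above the floor of the authors' table on at least 2 arrays of every group, r was 0.542, rho was 0.48 and 65.3% had the same sign. These are correlations across probes of the same 14 arrays, and probes are not independent replicates. Their p-values, however, rest on a spread estimated together over all 14 arrays. The wild-type effect gave 673 calls (3.43%), of which 89.3% had the same sign and 53.6% were called the same way in jnk1-/- lungs. The jnk1-/- effect gave 2374 calls (12.1%), of which 84.1% had the same sign and 15.2% were called the same way in wild-type lungs. With the Welch t-test of the study's methods, which uses only the arrays of a single genotype, 2 wild-type and 89 jnk1-/- probes passed an adjusted p of 0.05. Only 4 probes were called in both genotypes with opposite signs. The difference of the 2 effects was called for 75 probes (0.382%), and 1 of these, the muscle gene Mylpf, was among the 361 shared probes. Effects of shared probes were larger in jnk1-/- lungs for 178 and in wild-type lungs for 183.

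**Figure D1:**
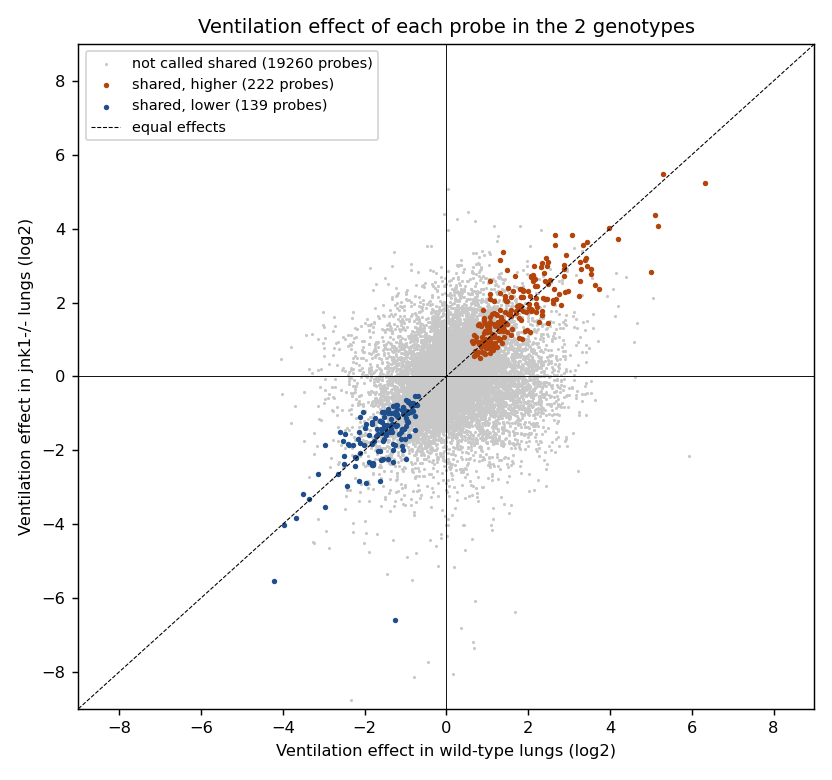
Each point is 1 of 19621 probes, placed by its log2 ventilation effect in wild-type lungs (x axis) and in jnk1-/- lungs (y axis), with the 222 shared rises and 139 shared falls coloured. The shared probe farthest from the dashed line of equal effects is Mylpf, which fell by 6.58 in jnk1-/- lungs and by 1.25 in wild-type lungs.

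The arrays showed the following at the level of the series. The type 2 alveolar markers, which include the surfactant proteins, had a median level between 10.3 and 11.3 on every array, as lung tissue should. Mapk8, the gene of JNK1, was near the limit of detection, at the floor of the authors' table on 1 of 3 wild-type control, 2 of 4 wild-type ventilated, 3 of 3 jnk1-/- control and 3 of 4 jnk1-/- ventilated arrays, so its probe hardly checks the genotype. Its levels were 3.09, 2.55 and 3.37 in wild-type controls, 3.49, 4.51, 2.11 and 4.46 after ventilation, 2.07, -0.35 and 2.93 in jnk1-/- controls and 3.91, 2.86, 1.25 and 2.98 after ventilation. Its main effect of 0.92 had an adjusted p of 0.32. Wild-type control replicates 2 and 3 held 10.7% and 6.98% of values at the lowest deposited value, against 1.86% to 4.52% on the other arrays. All 3 jnk1-/- controls stood apart in genes of skeletal muscle and stratified squamous epithelium, tissues that are not lung parenchyma. The muscle list median was 7.74 to 8.34 there against 4.5 to 5.86 on the other 11 arrays, and the squamous list median was 7.02 to 8.15 against 3.26 to 4.55.

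Mmp8, which encodes the neutrophil collagenase, had the smallest main-effect p of the genes named here. Its levels were 7.21, 6.97 and 6.25 in wild-type controls and 12.62, 11.92, 12.07 and 11.83 in ventilated wild-type mice. In jnk1-/- mice they were 6.56, 6.68 and 6.81 in controls and 11.46, 12, 12.8 and 12.37 after ventilation. Every ventilated array was thus far above every control array, and the ventilated arrays of the 2 genotypes overlapped. The main effect was a 41.8-fold rise, 5.39 ± 0.22 (SE) on the log2 scale, with an adjusted p of 8.2e-08. The jnk1-/- effect minus the wild-type effect was 0.18, with a 95% interval of -0.83 to 1.18. Control and ventilated labels were also permuted within genotype in an exact two-sided permutation test (1225 arrangements). For Mmp8 the p was 0.000816, the smallest these can give, also after adjustment over the 4 genes tested this way. Those genes, Mmp8, Gadd45a, Ccn5 and Atf4, are the ones the study measured by RT-PCR after finding them changed on these arrays. None overlapped between control and ventilated arrays within a genotype, and the p follows from that separation. For none of the 4 is it separate support.

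Of 21 measured neutrophil and myeloid receptor genes, 14 rose in the main effect and none fell, and 8 rose in both genotypes. Among all 13923 genes by their brightest probe, 8.32% rose and 7.28% fell, with 1.34% shared rises and 0.883% shared falls. These shares stand beside the counts of every list, and counts near them do not set a list apart. The median effect over the neutrophil list was 2.43 in wild-type and 1.2 in jnk1-/- lungs. Il1r2, a decoy receptor that binds interleukin-1 without signalling, rose the most of all shared genes that were measured in every group. It read 4.39, 4.31 and 3.37 in wild-type controls and 11.21, 8.9, 11.02 and 10.21 after ventilation, and 5.03, 4.27 and 4.71 in jnk1-/- controls and 8.59, 10.1, 10.59 and 10.36 after ventilation. This was a 54.8-fold rise in the main effect, 5.78 ± 0.43, with an adjusted p of 8.87e-06. Clec4d, a C-type lectin of neutrophils and monocytes, rose by 3.33 in wild-type and by 3.55 in jnk1-/- lungs, and its highest control level was 7.63 against a lowest ventilated level of 9.84. Trem1, a receptor that amplifies the inflammatory response of neutrophils and monocytes, was at the floor of the authors' table on all 6 control arrays and above it on all 8 ventilated ones. In that table it was at least 6.79-fold higher after ventilation, with log2 effects of at least 3.22 in wild-type and at least 2.31 in jnk1-/- lungs. With all controls at the floor, the difference between genotypes has no measured size.

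Slfn4, a Schlafen gene expressed in myeloid cells, followed the same pattern as Trem1 and was at least 5.87-fold higher in the authors' table. Among the markers of monocytes and macrophages the direction was mixed, with 4 of 23 rising and 2 falling in the main effect, 2 rising and 1 falling in both genotypes (1 rising without jnk1-/- control replicate 3, and none falling without any one wild-type array other than ventilated replicate 3). Ly6c1, a surface antigen of endothelial cells and monocytes, rose by 2.40, from at most 5.25 on any control array to at least 6.39 on any ventilated array. Fcgr3, a low-affinity receptor for IgG, rose by 1.62. Aif1, a calcium-binding protein of macrophages, fell by 2.23, and its shared call was lost in 8 of 19 alternatives. Its levels were 8.27, 8.54 and 8.32 in wild-type controls and 6.67, 6.63, 7.21 and 6.54 after ventilation, and 9.1, 8.09 and 7.79 in jnk1-/- controls and 4.69, 5.94, 5.96 and 5.32 after ventilation. The 8 shared rises of neutrophil genes were 5 without wild-type ventilated replicate 3, jnk1-/- control replicate 2 or 3 or jnk1-/- ventilated replicate 4, and 4 without wild-type control replicates 2 and 3 together. The platelet list had 1 of 12 genes higher, beside 8.32% of all genes, and none shared, and the erythroid list none of 5.

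Of 22 measured acute phase and innate defence genes, 10 rose and 1 fell in the main effect, 6 rose in both genotypes and 11 were not called. Saa3, an inducible serum amyloid A made locally in tissues, read 5.96, 6.09 and 6.58 in wild-type controls and 12.04, 11.53, 11.95 and 10.01 after ventilation. The jnk1-/- controls read 8.38, 6.53 and 6.71 and the ventilated jnk1-/- mice 10.32, 11.68, 10.85 and 12.24. The 24.6-fold rise (4.62 ± 0.44, adjusted p = 4.89e-05) was 5.17 in wild-type and 4.06 in jnk1-/- lungs. Serpina3n, a protease inhibitor of the antichymotrypsin type, rose by 2.64, from 8.67 to 10.19 over the control arrays to 11.28 to 12.53 over the ventilated ones. The transcription factor gene Cebpd, of the C/EBP family, was up by 1.64, and the lipopolysaccharide co-receptor gene Cd14 by 1.41, the latter losing its shared call in 8 of 19 alternatives. The 6 shared rises were 3 without jnk1-/- control replicate 1 or 2 or without jnk1-/- ventilated replicate 2 or 4.

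Among 29 cytokines and chemokines, 7 rose in the main effect and 2 of these in both genotypes, and the list's median effect was -0.19. Il6, the main inducer of the acute phase, read 3.57, 2.81 and 4.03 in wild-type controls and 5.33, 7.61, 7.75 and 6.34 after ventilation, and 4.65, 5.69 and 4.9 in jnk1-/- controls and 7.57, 9.14, 6.74 and 8.51 after ventilation. Ventilated arrays lay above the controls of their genotype, but the lowest ventilated wild-type array was below the highest jnk1-/- control. The rise was 8.58-fold (3.10 ± 0.45, adjusted p = 0.000971), and the shared call was lost in 6 of 19 alternatives, while the main effect passed in all of them. Il1f9, an interleukin-1 family cytokine of epithelia, rose by 1.95 with a narrow spread, from 5.42 to 6.29 in controls to 7.32 to 8.65 after ventilation. Cxcl2, a chemokine that attracts neutrophils, was 3.59 higher in the main effect and was not a shared gene, with an effect of 5.06 in wild-type lungs (adjusted p = 0.00336) and 2.11 in jnk1-/- lungs (adjusted p = 0.0676). The difference of -2.94 (95% interval -5.07 to -0.82) had an adjusted p of 0.235, and its size rests in part on 2 of 3 wild-type controls at the floor of the authors' table, in which the effects were 4.60 and 2.11. The wild-type controls read 2.13, 3.56 and 3.03 and the jnk1-/- controls 5.53, 5.89 and 5.27.

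Of 30 measured receptors and brakes of cytokine signalling, 16 rose in the main effect, none fell, and 8 rose in both genotypes. Tnfrsf12a, the receptor of the cytokine TWEAK, rose from 5.31 to 6.51 over the controls to 7.53 to 9.8 over the ventilated arrays, by 2.71 ± 0.25 (adjusted p = 3.84e-05). Socs3, which blocks signalling downstream of interleukin-6, rose by 2.73. Its 3 jnk1-/- controls were close together at 6.13, 6.2 and 6.21, and its 4 ventilated jnk1-/- arrays spread over 8.99, 9.32, 7.89 and 10.52. Myd88, the adaptor of Toll-like and interleukin-1 receptors, rose by 1.30, with a difference between genotypes of 0.04 (95% interval -0.64 to 0.71). The 8 shared rises were 5 without wild-type control replicate 2 or 3, wild-type ventilated replicate 2 or 3 or jnk1-/- control replicate 1.

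**Figure D2:**
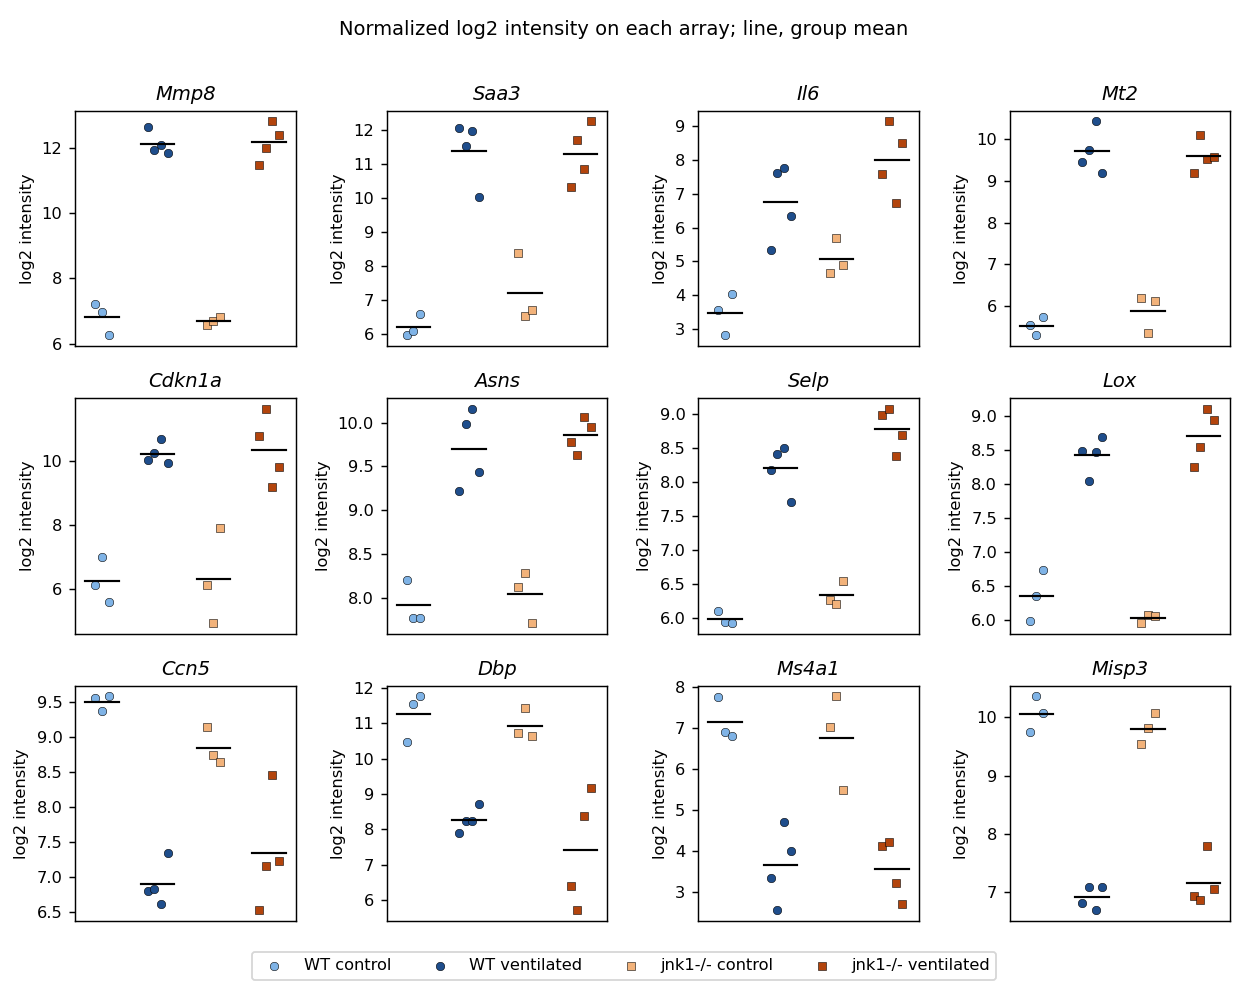
Normalized log2 intensity (y axis) of 12 genes on each of the 14 arrays, grouped by genotype and treatment, with a line at each group mean. In every panel the ventilated arrays of a genotype lie wholly above or wholly below its controls, from 41.8-fold higher for Mmp8 to 10.1-fold lower for Ms4a1.

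Immediate early and AP-1 genes rose in the main effect for 14 of 30 measured, and 1 fell, with 5 rising in both genotypes. Fosl1, an AP-1 subunit, read 2.13, 1.9 and 2.75 in wild-type controls and 5, 5.77, 5.88 and 5.32 after ventilation, and 4.51, 4.2 and 4.01 in jnk1-/- controls and 6.09, 6.76, 6.38 and 6.47 after ventilation. The rise of 2.71 ± 0.24 (adjusted p = 2.71e-05) went with control levels that differed between genotypes, and all 3 wild-type controls were at the floor of the authors' table. In that table the effect was at least 2.21 in wild-type and was 2.14 in jnk1-/- lungs, and the difference between genotypes has no measured size. Myc, a transcription factor that drives growth, rose by 2.01 in wild-type and by 1.97 in jnk1-/- lungs, with a difference of -0.04 (95% interval -1 to 0.92). Klf9, a Kruppel-like factor induced by glucocorticoids, rose by 1.95 and Nr4a3, an orphan nuclear receptor, by 1.22. The 5 shared rises were 3 without wild-type control replicate 2 or wild-type ventilated replicate 3 and 8 without jnk1-/- ventilated replicate 3.

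Growth arrest genes rose in 6 of 18 cases, 4 of them shared. Cdkn1a, the inhibitor of cyclin-dependent kinases known as p21, read 6.14, 7.01 and 5.61 in wild-type controls and 10.03, 10.26, 10.68 and 9.92 after ventilation, and 6.14, 4.96 and 7.9 in jnk1-/- controls and 10.78, 11.62, 9.19 and 9.82 after ventilation. This was a 15.9-fold rise (3.99 ± 0.46, adjusted p = 0.000202). Gadd45g, another stress-induced growth arrest gene, rose by 2.09 and Ddit4, an inhibitor of the growth kinase mTOR, by 1.68. Gadd45a read 8.27, 8.51 and 8.4 in wild-type controls and 9.47, 9.36, 9.68 and 9.37 after ventilation, and 8.45, 8.51 and 8.98 in jnk1-/- controls and 11.1, 10.93, 10.06 and 10.85 after ventilation. It rose in both genotypes, by 1.08 in wild-type (adjusted p = 0.0332) and 2.09 in jnk1-/- lungs (adjusted p = 0.000492). The difference of 1.01 (95% interval 0.27 to 1.76) did not pass over all probes (adjusted p = 0.24), and the shared call was lost in 9 of 19 alternatives. In the exact two-sided permutation test the p for Gadd45a was 0.000816.

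Amino acid and unfolded protein stress genes rose in 14 of 25 cases and fell in none, and 5 rose in both genotypes. Asns, which makes asparagine, read 8.2, 7.77 and 7.77 in wild-type controls and 9.22, 9.99, 10.16 and 9.44 after ventilation, and 8.12, 8.28 and 7.71 in jnk1-/- controls and 9.78, 9.63, 10.07 and 9.95 after ventilation. Its effects were 1.79 in wild-type and 1.82 in jnk1-/- lungs, with a difference of 0.03 (95% interval -0.75 to 0.80). Nupr1, a small stress-induced chromatin protein, rose by 2.31, Eif4ebp1, a repressor of translation initiation, by 1.13, and Nars, the asparaginyl-tRNA synthetase, by 1.05. The shared call of Nars was lost in 13 of 19 alternatives. The 5 shared rises of the list were 1 without wild-type control replicate 3, 2 without wild-type control replicate 2, and 3 without any one of 8 other arrays (wild-type ventilated replicates 2, 3 and 4, jnk1-/- control replicates 1, 2 and 3, and jnk1-/- ventilated replicates 2 and 4). Atf4, the factor that drives these genes, was 1.23 higher in the main effect (adjusted p = 0.00191). It was not called in wild-type lungs, with levels of 12.16, 12.51 and 12.24 in controls and 12.87, 13.42, 13.08 and 12.72 after ventilation (effect 0.72, adjusted p = 0.0737). In jnk1-/- lungs it rose by 1.74 (adjusted p = 0.000494), from 11.8, 11.71 and 11.98 to 13.65, 13.72, 13.21 and 13.72. The difference for Atf4 was 1.02 (95% interval 0.39 to 1.65, adjusted p = 0.173 over all probes). The arrays of each genotype did not overlap between control and ventilation, and the exact two-sided permutation p was 0.000816.

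Heat shock proteins and co-chaperones had a large median effect and no shared call. Of 16 measured, 11 rose in the main effect and none fell, with a median of 1.77, and all 16 had the same sign in both genotypes. The list's median level was 9.48 to 9.63 in wild-type controls and 9.46, 10.44, 10.42 and 9.86 after ventilation. In jnk1-/- mice it was 9.51 to 9.69 in controls and 11.45, 10.68, 9.63 and 11.09 after ventilation. Wild-type ventilated replicate 1 and jnk1-/- ventilated replicate 3 were thus not above the highest control of their genotype. In the jnk1-/- effect 7 passed and in the wild-type effect none. The member with the smallest p was Hspb8, a small heat shock protein. It read 9.97, 9.55 and 9.89 in wild-type controls and 10.78, 11.76, 11.31 and 10.77 after ventilation, and 9.94, 9.57 and 9.53 in jnk1-/- controls and 12.61, 12.46, 11.07 and 12.03 after ventilation. Its effect was 1.35 in wild-type (adjusted p = 0.0608) and 2.36 in jnk1-/- lungs (adjusted p = 0.00214), and the difference of 1.01 had a 95% interval of -0.09 to 2.11. The 11 rises were 5 without jnk1-/- control replicate 1 or 2, 7 without jnk1-/- ventilated replicate 2, and 4 without both of these controls.

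Metal-binding and antioxidant genes rose in 11 of 27 cases and fell in 3, with 5 shared rises. Mt2, a metallothionein that binds zinc and copper, read 5.53, 5.29 and 5.74 in wild-type controls and 9.45, 9.75, 10.43 and 9.2 after ventilation, and 6.2, 5.35 and 6.11 in jnk1-/- controls and 9.2, 10.1, 9.53 and 9.57 after ventilation. The ventilated arrays of the 2 genotypes overlapped and lay far above all controls, for a 15.5-fold rise (3.95 ± 0.23, adjusted p = 1.27e-06) and a difference of -0.48 (95% interval -1.46 to 0.51). Srxn1, which repairs oxidized peroxiredoxins, rose 9.95-fold, by 3.42 in wild-type and 3.21 in jnk1-/- lungs. Gclc, the rate-limiting subunit of glutathione synthesis, rose by 2.79 and Txnrd1, a thioredoxin reductase, by 1.85. The 3 ventilated arrays of highest Srxn1, at 9.31, 9.34 and 8.75, came from both genotypes. Without jnk1-/- ventilated replicate 1 the list had 8 shared rises.

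Glucocorticoid-induced genes showed the highest share of calls of any list. Of 20 measured, 18 rose in the main effect and 10 in both genotypes, and none fell. The median level of the list was 8.18 to 8.80 on the 6 control arrays and 10.1 to 11.0 on the 8 ventilated arrays, with effects of 1.49 in wild-type and 1.52 in jnk1-/- lungs. Several of its genes stand on other lists too, among them Mt2, Klf9, Ddit4, Cebpd and Cdkn1a. Map3k6, a stress kinase of the MAP3K family, read 8.38, 8.04 and 8.47 in wild-type controls and 11.25, 10.87, 11.53 and 11.28 after ventilation, and 7.34, 7.52 and 7.59 in jnk1-/- controls and 10.53, 11.36, 10.7 and 10.53 after ventilation. It rose 8.67-fold (SE of the log2 effect 0.17, adjusted p = 6.87e-07), and the difference between genotypes was 0.36 (95% interval -0.36 to 1.08). Without jnk1-/- control replicates 1 and 2, 13 of the 20 rose and 7 were shared, and without wild-type control replicates 2 and 3, 16 rose and 3 were shared.

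Among 13 circadian clock genes, 3 rose and 1 fell in the main effect, beside 8.32% and 7.28% of all genes. The gene that fell was the only shared one. Dbp, a clock-controlled transcription factor whose level follows the time of day, read 10.47, 11.54 and 11.77 in wild-type controls and 7.91, 8.25, 8.25 and 8.71 after ventilation, and 10.74, 11.43 and 10.65 in jnk1-/- controls and 6.4, 5.71, 8.37 and 9.18 after ventilation. The fall was 9.54-fold (-3.25 ± 0.48, adjusted p = 0.00103), and the shared call was lost in 9 of 19 alternatives. Hours of the day at which animals were killed are not given in the sources used here.

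Hypoxia-induced and glycolytic genes rose in 8 of 18 cases, 4 of them shared. Adm, the vasodilator adrenomedullin, read 3.05, 0.39 and 2.69 in wild-type controls, all at the floor of the authors' table, and 5.44, 5.62, 5.65 and 5.61 after ventilation. In jnk1-/- mice it read 4.14, 2.59 and 3.46 in controls, 2 of 3 at that floor, and 6.11, 6.18, 6.4 and 6.57 after ventilation. The main effect was 3.23 ± 0.37 (adjusted p = 0.000202), and its size rests on control levels near the floor, being at least 5.25-fold in the authors' table. Slc2a1, the glucose transporter GLUT1, rose by 1.34, Hk2, a hexokinase, by 1.01 and Ndrg1 by 1.31. The shared call of Ndrg1 was lost in 13 of 19 alternatives. The 33 measured genes of the mitochondrial respiratory chain had no call in either direction, with a median effect of -0.21.

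Matrix proteases and their inhibitors rose in 11 of 27 cases and fell in 2, with 6 shared rises. Besides Mmp8, Lox, which crosslinks collagen and elastin, rose by 2.38 ± 0.19 (adjusted p = 1.53e-05), from 5.98, 6.35 and 6.73 to 8.49, 8.04, 8.47 and 8.69 in wild-type lungs and from 5.95, 6.06 and 6.05 to 8.25, 8.55, 9.11 and 8.95 in jnk1-/- lungs. Adam8, a membrane protease of leukocytes, rose by 1.94 and Timp3, an inhibitor of metalloproteinases bound to the matrix, by 1.36. The 6 shared rises were 3 without wild-type control replicate 2 or 3 or wild-type ventilated replicate 3. Of 27 collagens and other structural genes, 4 rose and 2 fell, beside 8.32% and 7.28% of all genes. The shared one was Lum, a small proteoglycan of collagen fibrils, which fell by 1.74 and whose shared call was lost in 13 of 19 alternatives.

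In the CCN family and other genes induced by stretch, 4 of 18 rose and 2 fell, with 2 shared rises and 1 shared fall. The 4 rises were 2 in each of 10 fits that left out 1 array, the exceptions being wild-type control replicate 1, wild-type ventilated replicate 1 and jnk1-/- control and ventilated replicate 3. Ccn5, also called Wisp2, a matricellular protein that restrains growth, read 9.55, 9.37 and 9.58 in wild-type controls and 6.8, 6.83, 6.62 and 7.35 after ventilation, and 9.14, 8.74 and 8.64 in jnk1-/- controls and 6.53, 7.16, 8.46 and 7.24 after ventilation. It fell 4.14-fold (-2.05 ± 0.29, adjusted p = 0.00083), by 2.60 in wild-type and by 1.5 in jnk1-/- lungs, with a difference of 1.11 (95% interval -0.02 to 2.23). The exact two-sided permutation p was 0.000816. Ventilated jnk1-/- replicate 3 was the array nearest to the controls. Errfi1, a feedback inhibitor of the EGF receptor, rose by 1.42.

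Coagulation genes rose in 5 of 19 cases, 3 of them shared. F3, tissue factor, the starter of coagulation, rose by 1.99, from 7.58 to 8.43 over the controls to 9.32 to 10.73 over the ventilated arrays. Plat, the tissue plasminogen activator, rose by 2.24 and Plaur, the urokinase receptor, by 1.86, the latter losing its shared call in 12 of 19 alternatives. Of 26 endothelial genes, 2 rose and 3 fell, beside 8.32% and 7.28% of all genes, with a median of -0.08. Without wild-type control replicate 1 or jnk1-/- control replicate 1, 1 fell. Selp, the P-selectin by which vessel walls capture leukocytes, was the shared one. It read 6.1, 5.95 and 5.93 in wild-type controls and 8.17, 8.41, 8.5 and 7.71 after ventilation, and 6.26, 6.2 and 6.54 in jnk1-/- controls and 8.98, 9.07, 8.38 and 8.68 after ventilation, a rise of 2.33 ± 0.16 (adjusted p = 4.16e-06).

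Other genes among the largest shared rises fall outside these lists or have no role stated here. Tti2, a subunit of a complex that stabilizes large kinases, read 7.98, 7.87 and 8.03 in wild-type controls and 11.46, 11.6, 11.6 and 10.77 after ventilation, and 8.33, 8.28 and 8.43 in jnk1-/- controls and 11.59, 11.96, 11.29 and 11.2 after ventilation. That is a 9.72-fold rise (3.28 ± 0.17, adjusted p = 4.69e-07) with a gap of over 2 between the groups, measured by the brighter of 2 probes. Of the 41 shared genes with more than 1 probe, 5 had more than 1 shared probe. Csta2, a stefin that inhibits cysteine proteases, rose 8.59-fold, and 3110001I22Rik rose 11.6-fold from levels between 2.35 and 4.28. Pmvk, an enzyme of the cholesterol pathway, rose by 2.80 ± 0.19, from 10.24 to 11.14 over the controls to 13.07 to 14.14 over the ventilated arrays. It was the only riser among 18 genes of cholesterol synthesis and uptake, of which 3 fell (5 without jnk1-/- control replicate 3). Of 20 genes for ribosome biogenesis and polyamines, 6 rose and 1 fell, and the 2 shared rises were Ddx21, an RNA helicase, by 1.08 and Mybbp1a, a nucleolar protein, by 1. Among 29 proteasome subunits, 6 rose and Psmd12 was shared, up by 0.96. The shared calls of Mybbp1a and Psmd12 were lost in 16 and 15 of 19 alternatives.

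**Figure D3:**
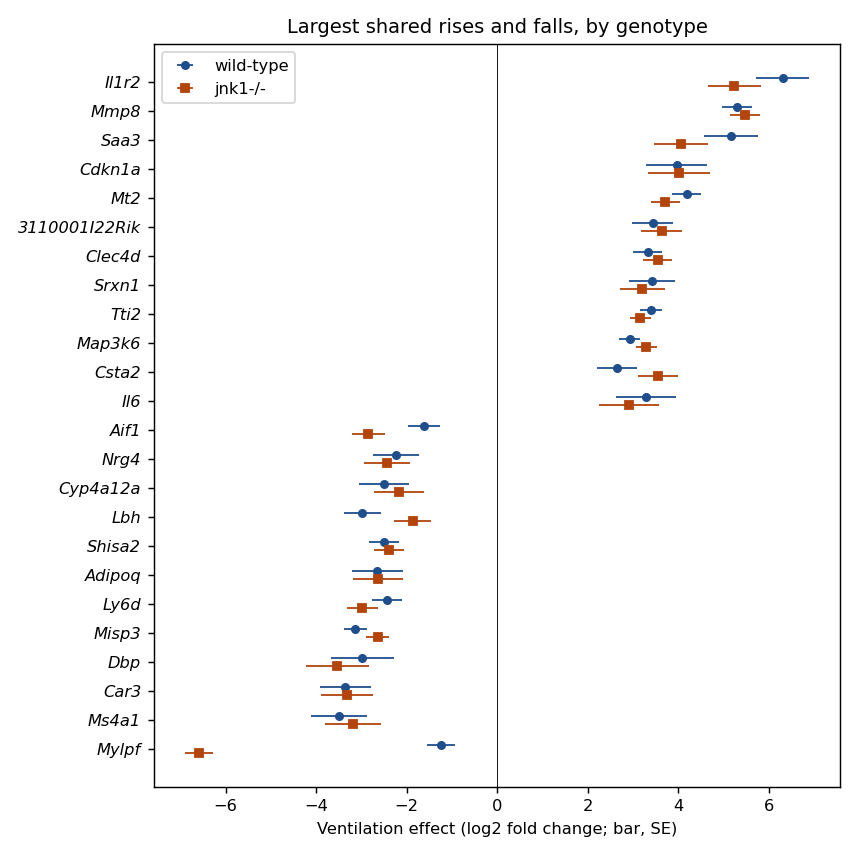
Log2 ventilation effect (x axis, bars are SE) in wild-type and jnk1-/- lungs of the 12 largest shared rises and the 12 largest shared falls among genes measured in every group. The 2 genotypes lie farthest apart for Mylpf, at -1.25 in wild-type and -6.58 in jnk1-/- lungs.

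The shared falls held genes of lymphocytes and antigen presentation. Of 18 B cell and plasma cell genes, 8 fell in the main effect, none rose and 3 fell in both genotypes, beside 7.28% of all genes falling in the main effect and 0.883% called as shared falls. The list's median level overlapped in wild-type lungs, at 6.053 to 6.145 in controls and 5.674 to 6.153 after ventilation. In jnk1-/- lungs it did not, at 6.092 to 6.296 in controls and 5.596 to 5.988 after ventilation. Ms4a1, the B cell surface protein CD20, read 7.76, 6.89 and 6.81 in wild-type controls and 3.35, 2.56, 4.7 and 4.01 after ventilation, and 7.02, 7.77 and 5.49 in jnk1-/- controls and 4.12, 4.23, 3.23 and 2.72 after ventilation. The fall was 10.1-fold (-3.34 ± 0.42, adjusted p = 0.00035), with all control arrays above all ventilated ones. Cd79b, a subunit of the B cell receptor, fell by 1.56, with a difference between genotypes of 0.28 (95% interval -0.55 to 1.11). Cr2, the complement receptor of B cells, fell by 1.11 and lost its shared call in 15 of 19 alternatives.

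Of 19 genes of MHC class II and dendritic cells, 10 fell, none rose and 3 fell in both genotypes. Ciita, the master activator of class II genes, read 6.7, 7.3 and 6.69 in wild-type controls and 5.31, 5.55, 4.84 and 5.75 after ventilation, and 7.41, 6.72 and 6.81 in jnk1-/- controls and 5.85, 6.09, 5.63 and 5.97 after ventilation, a fall of 1.31 on the log2 scale (adjusted p = 0.00089). H2-DMb1, which loads peptides onto class II molecules, fell by 1.55 and H2-Ob, which inhibits that step, by 1.61. The list's median level was 6.69 to 7.41 on the controls and 5.32 to 6.09 on the ventilated arrays, without overlap. In the T and NK cell list 9 of 28 were lower and 1 was higher, with a median of -0.72 and none shared, and 5 were lower without wild-type control replicate 1 or jnk1-/- control replicate 2. Cd2, an adhesion receptor of T cells, was the one of smallest p, with effects of -0.94 in wild-type (adjusted p = 0.0966) and -1.63 in jnk1-/- lungs (adjusted p = 0.00509). Among 26 interferon-induced genes, 6 fell and none rose, with Psmb9, a subunit of the immunoproteasome, falling by 1.81 in the main effect and shared. Those 6 falls were 3 without jnk1-/- control replicate 1 or 2 or jnk1-/- ventilated replicate 4. Without jnk1-/- control replicates 1 and 2, 5 B cell and 4 class II genes fell, and 0 and 1 were shared. The class II list also had 1 shared fall without jnk1-/- control replicate 1 alone.

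Adipoq, Thrsp and Retn were the fat cell genes that fell in both genotypes, and 14 of their list were not called in the main effect. Of 23 adipocyte and lipogenic genes, 9 fell, none rose and 3 were shared. Adipoq, the fat cell hormone adiponectin, read 11.02, 11.55 and 11.17 in wild-type controls and 8.14, 8.28, 8.5 and 9.49 after ventilation, and 12.7, 12.13 and 9.99 in jnk1-/- controls and 8.47, 9.58, 8.91 and 8.9 after ventilation. It fell 6.23-fold (-2.64 ± 0.38, adjusted p = 0.000849), and its effects of -2.64 in wild-type and -2.64 in jnk1-/- lungs differed by 0.01 (95% interval -1.71 to 1.72). Thrsp, a regulator of fat synthesis, fell by 3.76 and Retn, the hormone resistin, by 1.96, the latter losing its shared call in 12 of 19 alternatives. Thrsp was at the floor of the authors' table on 3 of 4 wild-type and 2 of 4 jnk1-/- ventilated arrays. In that table its main effect was -3.39, a lower bound of the fall. Car3, a carbonic anhydrase abundant in fat and muscle, read 8.25, 8.28 and 8.17 in wild-type controls and 4.22, 4.41, 4.63 and 6.28 after ventilation, and 10.06, 9.72 and 8.15 in jnk1-/- controls and 5.3, 6.69, 5.47 and 6.54 after ventilation. Fat is not part of the lung parenchyma, and the whole list's median level was highest in jnk1-/- control replicates 1 and 2, at 9 and 7.97, against 6.69 to 7.45 on the other 12 arrays. Its part in these falls was not tested. Without those 2 arrays 5 genes of the list fell and none was shared. None of the 3 shared falls was called without wild-type control replicate 2 or 3 or wild-type ventilated replicate 1, 2 or 3, and 1 was without wild-type control replicate 1.

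Most of the muscle genes that fell were called in jnk1-/- lungs and not in wild-type lungs. Of 28 skeletal muscle genes, 18 fell, 2 of them in both genotypes, with a median effect of -0.49 in wild-type and -2.45 in jnk1-/- lungs, and the difference of the effect was called for 9. Mylpf, a myosin light chain of fast muscle, read 6.11, 6.1 and 5.45 in wild-type controls and 4.38, 4.41, 5.06 and 4.72 after ventilation, and 10.7, 10.39 and 11.11 in jnk1-/- controls and 3.59, 3.98, 4.85 and 4.17 after ventilation. The wild-type fall of 1.25 had an adjusted p of 0.0499, the difference of -5.34 had one of 0.000568, and 16 of 19 alternatives did not give a shared call. Pygm, the muscle glycogen phosphorylase, fell by 1.06 in wild-type and by 2.00 in jnk1-/- lungs and lost its shared call in 11 alternatives. Without jnk1-/- control replicates 1 and 2, 5 muscle genes fell and none was shared. Tnnc2 and Myh4, a troponin and a myosin of fast muscle, and Mt4, a metallothionein of squamous epithelium, had the largest main-effect falls outside the shared set. None passed in wild-type lungs, and all passed in jnk1-/- lungs. Tnnc2 had effects of -0.80 in wild-type and -8.13 in jnk1-/- lungs, with 1 wild-type control and 3 jnk1-/- ventilated arrays at the floor of the authors' table. Myh4 was at that floor on all 7 wild-type and all 4 jnk1-/- ventilated arrays, so it has no wild-type effect, and its jnk1-/- effect of -4.26 in the authors' table is a lower bound of the fall. Mt4 was at the floor on all 8 ventilated arrays and on 2 of 3 wild-type controls, and its jnk1-/- effect of -6.62 in that table is likewise a lower bound of the fall.

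Of 36 stratified squamous genes, 8 fell and 1 rose in the main effect, and 2 fell in both genotypes. Ly6d, a surface antigen of keratinocytes and B cell precursors, read 8.57, 8.63 and 8.41 in wild-type controls and 6.16, 5.89, 6.37 and 6.01 after ventilation, and 9.18, 9.21 and 8.77 in jnk1-/- controls and 6.96, 6.47, 5.57 and 5.31 after ventilation. It fell 6.52-fold (-2.71 ± 0.24, adjusted p = 3.24e-05) with a difference of -0.54 (95% interval -1.59 to 0.50). Its controls read 8.41 to 8.63 in wild-type and 8.77 to 9.21 in jnk1-/- mice. Lgals7, a galectin of squamous epithelium, was at the floor of the authors' table on all 8 ventilated arrays and was at least 4.93-fold lower there in the main effect. In that table its log2 effects were -0.62 in wild-type and -3.98 in jnk1-/- lungs, each a lower bound of the fall. Its shared call was lost in 9 alternatives. The muscle and squamous medians of the jnk1-/- controls given above move with these falls, and their part in them was not tested.

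**Figure D4:**
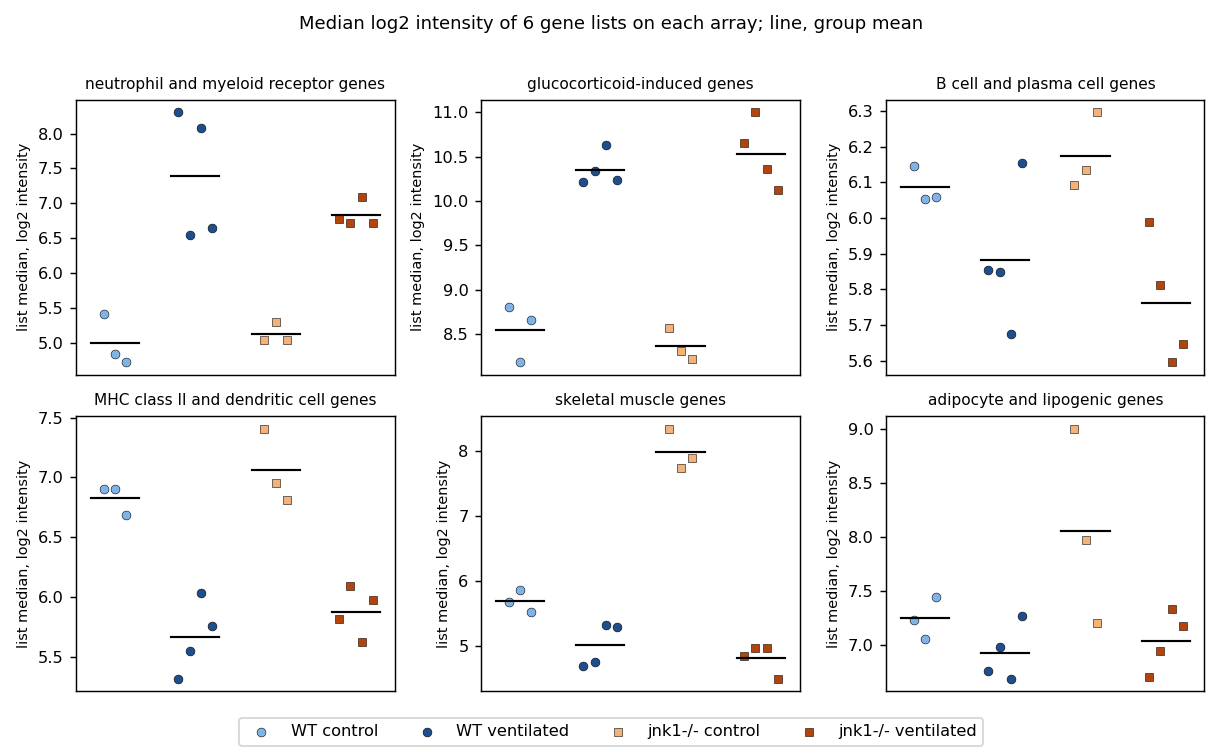
Median log2 intensity (y axis) of 6 gene lists on each of the 14 arrays, grouped by genotype and treatment, with a line at the group mean. The neutrophil and glucocorticoid lists lie higher and the class II list lower on all ventilated arrays, while the muscle list stands at 7.74 to 8.34 on the jnk1-/- controls only.

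Several of the largest shared falls belong to none of these groups. Misp3, which the annotation relates to the spindle protein MISP, read 9.74, 10.36 and 10.07 in wild-type controls and 6.81, 7.09, 6.69 and 7.09 after ventilation, and 9.54, 9.81 and 10.07 in jnk1-/- controls and 6.93, 6.87, 7.8 and 7.06 after ventilation. This fall of 7.4-fold (-2.89 ± 0.19, adjusted p = 3.31e-06) had the smallest p of the shared falls named here. Shisa2, which retains FGF and Wnt receptors inside the cell, fell by 2.44, from at least 7.3 on the controls to at most 6.15 on the ventilated arrays. Lbh, a transcriptional regulator of limb and heart development, fell by 2.42, Nrg4, an EGF family ligand made by fat tissue, by 2.33 and Cyp4a12a, a fatty acid hydroxylase, by 2.34. Nrg4 is not on the adipocyte list. It read 7.19, 7.22 and 4.8 in jnk1-/- controls, highest in replicates 1 and 2 as the fat list was, and 6.32, 6.36 and 6.26 in wild-type controls. The part of fat in its fall was not tested. Cyp4a12a lost its shared call in 13 of 19 alternatives and Nrg4 in 8. Ackr4, a scavenging chemokine receptor, was at the floor of the authors' table on all ventilated arrays and at least 4.41-fold lower there, and Lrat, which esterifies retinol, at least 1.95-fold lower.

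Among 27 Wnt pathway genes, 1 rose and 5 fell, beside 8.32% and 7.28% of all genes. Wnt3a, a secreted Wnt ligand, fell by 1.81 ± 0.20 (adjusted p = 0.000123), from 7.89, 7.9 and 8.16 to 5.63, 6.78, 5.93 and 6.34 in wild-type lungs and from 7.98, 8.15 and 7.55 to 5.61, 6.17, 6.45 and 6.12 in jnk1-/- lungs. Its 2 effects, -1.81 and -1.80, differed by 0.01 (95% interval -0.87 to 0.89). The 5 falls of the list were 3 without jnk1-/- control replicate 1 or 2 or jnk1-/- ventilated replicate 4. Nkd1, a feedback inhibitor of Wnt signalling, rose by 0.97 and lost its shared call in 14 of 19 alternatives.

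The lists of structural lung cell types below held 1 shared call or none each. Over all genes, 1.34% were shared rises and 0.883% shared falls, while 8.32% rose and 7.28% fell in the main effect. Of 15 type 2 alveolar genes, 2 rose, 1 fell and none was shared. Of 10 type 1 alveolar genes, 2 fell, and the shared one was Akap5, a scaffold for protein kinase A, which fell by 1.25, from 9.5, 9.54 and 9.35 to 8.1, 8.13, 7.36 and 8.17 in wild-type lungs and from 9.04, 9.37 and 8.55 to 7.77, 8.29, 8.17 and 7.81 in jnk1-/- lungs. Of 18 airway genes, 5 fell and none was shared, and 1 to 3 fell in every fit without 1 array other than jnk1-/- ventilated replicate 3. Bpifa1, a secreted defence protein of the upper airways, had the smallest p among them, with a main effect of -1.92 (adjusted p = 0.00595). Of 21 fibroblast and mesothelial genes, 1 rose and 3 fell, and Inmt, an amine methyltransferase abundant in lung, fell by 0.82 in the main effect and was shared, a call lost in 12 of 19 alternatives. The 10 smooth muscle genes had no call in the main effect, and the smallest adjusted p, for Myh11, was 0.0583. Of 30 cell cycle genes, 1 rose and 3 fell, none shared, and the number that fell ranged from 0 to 5 when 1 array was left out, and of 10 tubulin genes 1 rose and 1 fell.

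**Figure D5:**
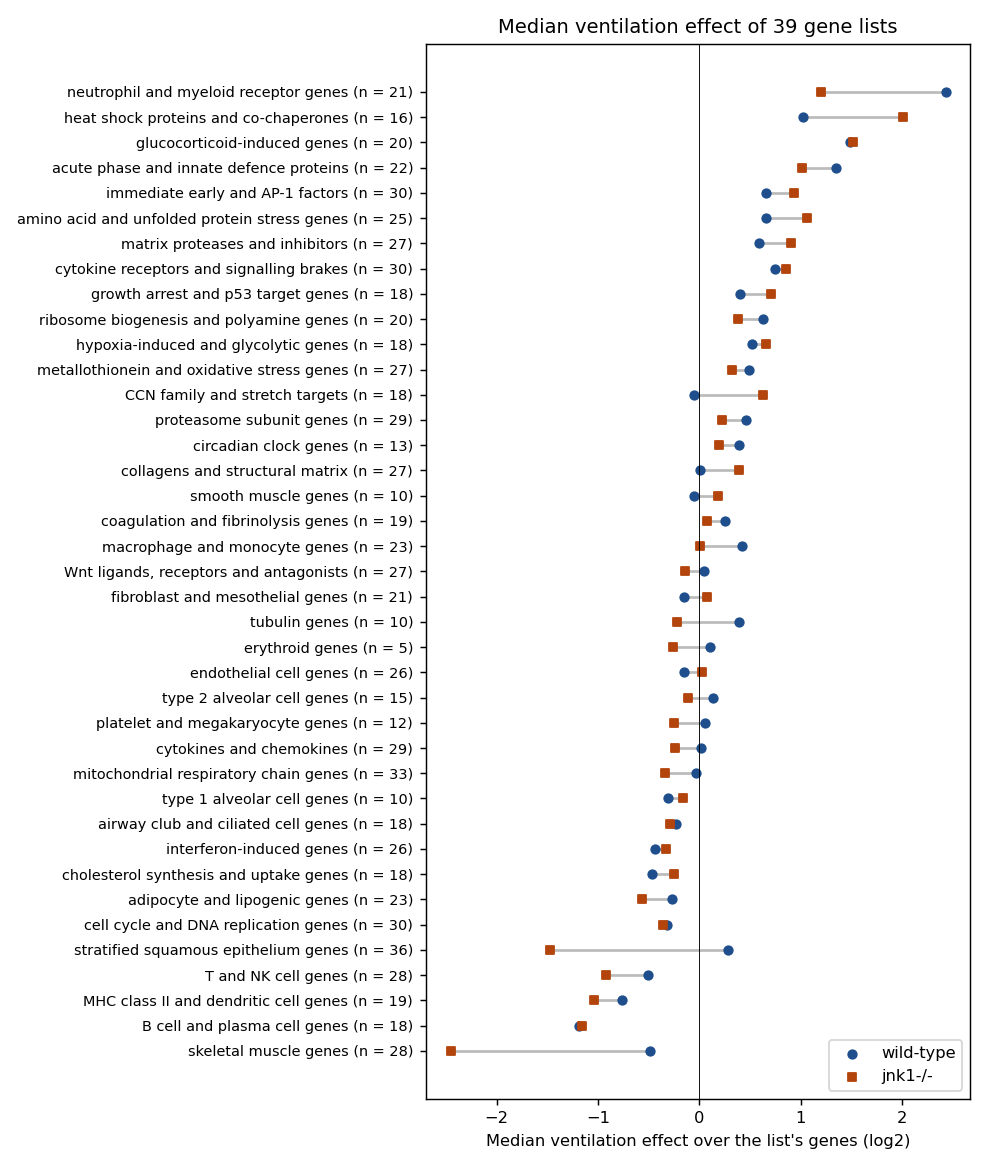
Median log2 ventilation effect (x axis) over the measured genes of each of 39 lists, for wild-type and jnk1-/- lungs. Neutrophil genes have the highest median in wild-type lungs (2.43) and heat shock genes in jnk1-/- lungs (2.01), while B cell genes (-1.19) and skeletal muscle genes (-2.45) have the lowest, with a gap between genotypes for muscle (-0.49 and -2.45) and squamous genes (0.29 and -1.48).

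The number of shared probes varied with the arrays included. Leaving out 1 array at a time gave 1845 to 2774 main-effect calls and 182 to 416 shared calls. The fewest shared calls, 182, came without wild-type control replicate 2 and also without replicate 3. Shared calls also moved by over 1.5 times without wild-type ventilated replicate 1 (217), 2 (237) or 3 (204) and without jnk1-/- control replicate 2 (229). Of the 83 named genes with a shared call, 39 kept it under all 19 alternatives, and these include Il1r2, Mmp8, Saa3, Cdkn1a, Mt2, Clec4d, Srxn1, Tti2, Map3k6, Selp, Lox, Asns, Misp3, Ly6d, Shisa2, Cd79b and Wnt3a. It was lost in 5 to 7 alternatives for Adipoq, Thrsp, Ddx21, Il6, Socs3, Nr4a3, Ccn5, H2-DMb1, Psmb9, Timp3, Akap5 and H2-Ob.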

How the data were processed

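Lung RNA of 14 mice, 1 array each, was hybridized to CodeLink single-colour arrays, and labels gave the 4 groups. The label of wild-type ventilated replicate 2 reads c47/b where the other wild-type labels read c57/b. It was kept in the wild-type ventilated group. The authors deposited log2 intensities of 19621 probes per array, unscaled between arrays (lowest -6.86), and a log2 table made by the CyclicLoess method, whose floor of 3.12 holds 24.5% of values. Here cyclic loess was run again on the per-array values with every pair of arrays (R 4.3.3, span 0.7, 3 iterations). Values at the lowest deposited value, 1.86% to 10.7% of an array, were then set to -0.65, as were the lowest 1% of the remaining values. limma 3.58.1 (lmFit, eBayes) fitted ventilation with genotype as a term, and the 4 groups for each genotype's effect and the difference. P-values were adjusted by the Benjamini-Hochberg method across the 19621 probes (threshold 0.05). The steps were tested on simulated data. Precision is limited by how many arrays there are. The methods' t-test, other scalings, filters and fits, and omission of each array were tried as alternatives.

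Of the probes, 15353 name 1 gene, 91 several and 4177 none, for 13923 genes. The 39 lists name 963 genes and 818 of them have a probe here (the brightest was used). Among the named genes, Tti2, Lbh, Cyp4a12a, Gclc, Ndrg1 and Lrat have 2 probes each, and the values given are of 1 of them. Positions and promoters come from RefSeq (GRCm38.p6). Members and lists were chosen with earlier results of these data known. Named genes were the 12 largest shared rises and falls above the authors' floor on at least 2 arrays per group, up to 6 in each direction at that floor in 1 arm (given as bounds from the authors' table), up to 4 shared members of each list by p (or the one of smallest p), Mmp8, Gadd45a, Ccn5, Atf4 and Mapk8, and the 3 largest main-effect changes in each direction not called in both genotypes. Kcnk13, at the floor on 13 arrays, has no fold. Same-numbered arrays did not deviate together (correlations of -0.24 to 0.21 over 19 pairs), so numbers did not pair them.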

Additional observations from a re-analysis of the deposited data

Results flagged for a closer look

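Of the 75 probes called for a difference of the ventilation effect between genotypes, 4 belong to genes named here. The jnk1-/- minus wild-type difference was -5.34 for Mylpf, -6.42 for Mt4 (adjusted p = 0.0492), -7.32 for Tnnc2 (adjusted p = 0.0261) and -7.29 for Myh4 (adjusted p = 0.0159). All 4 are genes of muscle or squamous epithelium, and the 3 jnk1-/- controls held their highest levels, for Tnnc2 11.6, 10.95 and 11.28. Mt4, Tnnc2 and Myh4 were named for the largest main-effect falls outside the shared set, so the 4 do not represent the 75. The difference was called for 9 genes of the muscle list and 8 of the squamous list. It was called for 1 gene each on the cytokine, cytokine receptor, collagen and macrophage lists. The sizes for Mt4 and Myh4 rest on readings at the floor of the authors' table, Myh4 on all 7 wild-type and 4 jnk1-/- ventilated arrays and Mt4 on all 8 ventilated arrays. In that table the jnk1-/- effects were -6.62 for Mt4 and -4.26 for Myh4, and the wild-type effects -0.097 and 0.

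Single arrays lay far from the other 3 of their group in 13 of the 202 groups of 4 tested, and chance alone marks about 1 group in 20. Among wild-type ventilated arrays, replicate 1 read 3.77 for Lbh, against 5.23 to 5.51 on the others, and 6.84 for Mybbp1a, against 7.21 to 7.28. Replicate 2 read 8.86 for Myd88, against 8.23 to 8.33, and 13.58 for Nupr1, against 11.76 to 11.90. Replicate 3 read 7.36 for Akap5, against 8.10 to 8.17, and 4.54 for H2-Ob, against 4.94 to 4.97. Replicate 4 read 5.95 for Plat, against 6.97 to 7.08, 12.61 for Bpifa1, against 10.86 to 11.08, and 7.82 for Retn, against 6.76 to 6.92. Among jnk1-/- ventilated arrays, replicate 4 read 7.86 for Il1f9, against 8.10 to 8.14. Replicate 3 read 12.22 for Cebpd, against 13.14 to 13.21, 13.21 for Atf4, against 13.65 to 13.72, and 1.80 for Myh4, against -0.65 to -0.46.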

How the results depend on the processing

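The 97 named genes called in the main effect kept their direction in all 1843 values over 19 alternatives, and 92 kept the call in all of them. Calls were lost for E2f1 in 10, Myh4 in 8, Tnnc2 in 4, and Saa2 and Kcnk13 in 1. The counts of calls moved more. Main-effect calls, 2695 as reported, came to 1395 with close control pairs averaged (wild-type control 2 and 3, jnk1-/- control 1 and 2), 4091 with array weights and 687 with a fold over 2 and no overlap. Shared calls, 361 as reported, came to 627 in the authors' table, 117 with close pairs averaged, 600 without dim probes, 821 with array weights, 658 with an intensity trend, 154 when the larger of the 2 p-values was adjusted and 0 by the methods' t-test in each genotype, where 1102 probes had the same sign and an unadjusted p under 0.05 in both. Calls for the difference, 75 as reported, came to 207 in the authors' table, 18 with close pairs averaged, 115 without dim probes, 282 with array weights and 167 with an intensity trend. With the replicate number as a block, which does not pair the animals (3 of 14 arrays correlated best with their own number), the counts were 1496, 161 and 12. Without 1 replicate at a time they ranged from 1845 to 2774, from 182 to 416 and from 20 to 235, the last both from wild-type controls (replicates 2 and 1), and 94 to 97 named genes stayed called. In alternatives chosen after seeing the data, leaving out jnk1-/- control replicates 1 and 2 gave 1054 main and 161 shared calls, and leaving out wild-type control replicates 2 and 3 gave 62 shared calls. The cause was not tested. Low signal limits 23 of the 361 shared probes, which were not above the authors' floor on at least 2 arrays of every group.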

Other observations

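Celsr3 and Saa2, named as large main-effect rises outside the shared set, were called in wild-type lungs and missed the threshold in jnk1-/- lungs. Celsr3, a cadherin of planar cell polarity, was 3.54 higher in the main effect, with adjusted p-values of 0.0462 in wild-type and 0.126 in jnk1-/- lungs, and it was at the floor of the authors' table on 2 of 3 wild-type and 3 of 3 jnk1-/- controls. Saa2, a serum amyloid A, was 3.47 higher, with 0.0318 and 0.0708, and was at that floor on all 6 controls. These sizes rest on readings at the floor. In the authors' table Celsr3 was 3.23-fold higher (adjusted p = 0.00486) and Saa2 at least 2.29-fold higher (adjusted p = 0.0633), so the call for Saa2 was lost there.

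From lists without a shared gene, the member of smallest main-effect p was F13a1 for platelets, a coagulation factor subunit of platelets and macrophages, which rose by 2.19 in wild-type lungs (adjusted p = 0.0282) and had an effect of 1.21 in jnk1-/- lungs (adjusted p = 0.122). Fabp5, a fatty acid binding protein, fell by 1.10 in jnk1-/- lungs (adjusted p = 0.00384) and had an effect of -0.39 in wild-type lungs (adjusted p = 0.276). Tubb6, a beta tubulin, had effects of 1.07 in wild-type (adjusted p = 0.0637) and 1.57 in jnk1-/- lungs (adjusted p = 0.00587). In none of the 3 did the test of the difference pass.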
